A study of Saccharomyces cerevisiae with 16 samples.

Results

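The genes described here are 55 genes of amino acid synthesis in the budding yeast Saccharomyces cerevisiae. They were chosen by name, as the genes whose symbol is ARG, HIS, ILV, LEU, LYS, TRP, THR, SER or HOM followed by a digit, together with ARO1, ARO2, ARO3, ARO4, ARO7 and GCN4. The rule itself uses no measured value, but it was set with earlier results of these data known. The 55 are part of 5449 distinct genes named on the arrays. Each of them has 1 probe set, which is the set of short oligonucleotides that reports 1 transcript. Grouped by the amino acid they serve, there are 6 genes for arginine, 7 for histidine, 9 for the branched chain amino acids, 8 for lysine, 9 for the aromatic amino acids, 5 for threonine and 4 for serine. The other 7 are regulators or carriers that the name rule also picks up, namely GCN4, ARG80, ARG81, ARG82, LEU3, LEU5 and LYS14.

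RNA came from yeast at steady state in chemostats, where a constant feed keeps the cells growing under 1 limiting nutrient, and was hybridised to 16 Affymetrix arrays. A mutant strain (SCE088) and a reference strain (SCE090) were each grown in 4 conditions. In N-Lim (Eth) the limiting nutrient was ammonium sulfate and the carbon source was ethanol. Eth-Lim cells were limited by ethanol itself, N-Lim (Glu) cells by ammonium sulfate with glucose as the carbon source, and Glu-Lim cells by glucose. Ammonium sulfate was the nitrogen source in every group, and each of the 8 groups has 2 arrays. The labels do not name the mutated gene, so no check of a targeted gene could be made, and they do not say whether the arrays of a group come from separate cultures. The p-values below are therefore set by the array-to-array spread alone, and that spread may be technical.

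Yeast builds every amino acid from intermediates of carbon metabolism and from ammonium that enters through glutamate and glutamine. Many of the genes for these pathways are activated together by Gcn4, the transcription factor of general amino acid control, whose own mRNA is translated more when an amino acid runs short. Single pathways carry a further layer of control. Arg80, Arg81 and Mcm1 act on the arginine genes with Arg82, Leu3 acts on branched chain genes when a leucine precursor accumulates, and Lys14 acts on lysine genes when a lysine precursor accumulates.

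Duplicate arrays correlated with Pearson r of 0.984 to 0.997 across probe sets, which are not independent, and array medians ran between 11.91 and 12.01 on the log2 scale. The median absolute difference between the 2 arrays of a group, over the 55 genes, ran between 0.019 and 0.084 on the log2 scale. The 4 ethanol markers, FBP1, ICL1, MLS1 and PCK1, were all higher on ethanol than on glucose in each strain and under each limitation. The 4 nitrogen markers, DAL5, DAL80, GAP1 and MEP2, were all higher in N-Lim (Glu) than in Glu-Lim in each strain, while in N-Lim (Eth) over Eth-Lim 2 of them passed in Mutant and 3 in Reference. They were also higher in Eth-Lim than in Glu-Lim, where neither group was nitrogen-limited, with 3 past the threshold in Mutant (median of the 4, 0.98) and 4 in Reference (median 0.81). All differences below are log2 differences of group means from a single limma fit over the 16 arrays. A gene is said to rise or fall where its Benjamini-Hochberg adjusted p, over all 5716 probe sets, is under 0.05. A second fit, chosen after seeing the data, held the array numbers of the descriptions as a block within each strain. It left every difference as it was and called more genes and more probe sets. Counts that it moved by over 1.5 times are given below. Changed calls are given for some genes only, so a gene without such a mention may have gained calls too.

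Most of these genes varied little between the 8 groups. The span between the highest and the lowest group mean had a median of 0.36 log2 over the 55 genes, against 0.46 over all probe sets. A span of more than 1 log2 was reached by 2 genes, ARO7 with 1.48 and ARG1 with 1.04, which is 3.64% of the genes against 14.6% of all probe sets. The narrowest spans were those of LEU2 and GCN4, at 0.07 each. Brightness differed as well, and 45 of the 55 lay above the median brightness of the probe sets. Among the brightest 25% of probe sets, which hold 39 of the genes, their median span was 0.34, against 0.35 for all probe sets there. In the next 25% it was 0.32 against 0.40 (6 genes), then 0.72 against 0.47 (5 genes), and 0.73 against 0.69 in the dimmest 25% (5 genes). Spans over 1 log2 were reached by 30.7% of the dimmest 25% of probe sets and by 9.03% of the brightest 25%. Reference Eth-Lim was the group of the highest mean for 20 of the genes, while it was the highest for 9.69% of all probe sets. The lowest mean fell in Mutant Glu-Lim for 15 genes, in Mutant N-Lim (Glu) for 14 and in Reference N-Lim (Glu) for 10, while these groups were the lowest for 11.8%, 23.5% and 13.8% of all probe sets.

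**Figure D1:**
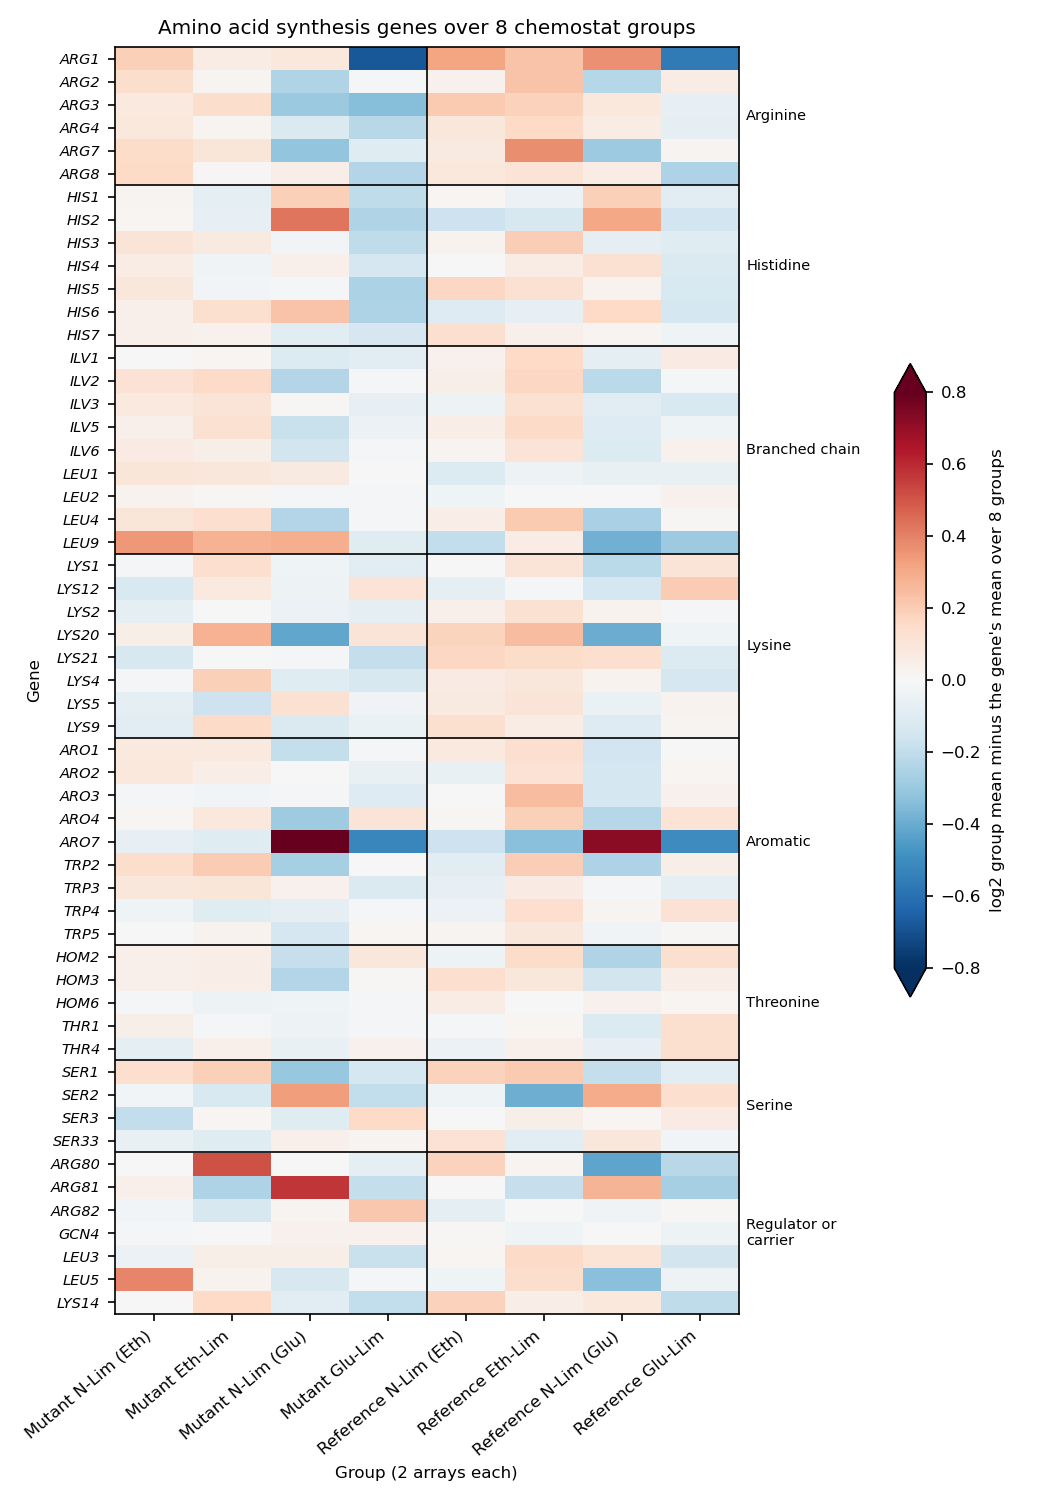
Each row is 1 of the 55 genes, each column 1 of the 8 groups of 2 arrays, and the colour gives the log2 group mean minus the mean of the gene over the 8 groups, with values beyond 0.8 drawn in the end colours. ARG1 is low in both Glu-Lim columns and ARO7 is high in both N-Lim (Glu) columns, and the row of GCN4, with a span of 0.07, is almost blank.

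Nitrogen limitation was set against carbon limitation in each strain and on each carbon source. On glucose, 30 of the 55 genes passed the threshold in Mutant, 14 higher and 16 lower in N-Lim (Glu) than in Glu-Lim, which is 54.5% beside 48.8% of all probe sets, of which 25.2% were higher and 23.6% lower. In Reference 26 passed, 10 higher and 16 lower, or 47.3% beside 43.6% (21.4% higher and 22.2% lower). These shares are close to the background, so the counts do not set the genes apart. The median difference over the 55 genes was 0.03 in Mutant and -0.04 in Reference, where all probe sets had medians of 0.00 in both. Both strains shared 20 of the calls in the same direction and none in the opposite direction, which is 66.7% of those in Mutant and 76.9% of those in Reference. The genes that rose in both were ARG1, ARG4, ARG8, ARG81, ARO7, HIS1, HIS2, HIS4 and HIS5, and those that fell in both were ARG2, ARG7, ARO4, HOM2, HOM3, ILV2, ILV6, LEU4, LYS12, LYS20 and TRP2. Scaling matters for the Mutant split, since quantile normalization gave 16 higher and 12 lower. Of the calls, 17 in Mutant and 16 in Reference stayed past the threshold whichever array was left out. The Mutant count was 19 without Mutant Glu-Lim replicate 1 and 19 without Mutant N-Lim (Glu) replicate 2.

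On ethanol fewer of the genes passed between the limitations than on glucose. Their share lay below that of all probe sets in Mutant and above it in Reference. In Mutant 4 passed, 1 higher and 3 lower in N-Lim (Eth) than in Eth-Lim, or 7.27% beside 14.3% of all probe sets, of which 6.53% were higher and 7.79% lower. In Reference 8 passed, 1 higher and 7 lower, or 14.5% beside 8.21% (4.62% higher and 3.59% lower). None passed in both strains. With the block within each strain 12 passed in Mutant, 5 higher and 7 lower, beside 31.9% of all probe sets, and 16 in Reference, 3 higher and 13 lower, beside 15.2%, and again none passed in both. The calls without the block were fragile, because leaving out any 1 of the 4 arrays of a strain left 0 to 2 calls in Mutant and 1 or 2 in Reference, and the fall of ARG7 in Reference was the 1 call that every such setting kept. Median centring of the arrays turned the Mutant split into 4 higher and 2 lower. The median difference of the 55 genes was 0.00 in Mutant and -0.07 in Reference, against -0.03 and 0.02 over all probe sets.

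Between the carbon sources, most of the calls were rises on ethanol. Under carbon limitation, 22 rose and none fell in Mutant Eth-Lim against Mutant Glu-Lim, or 40% beside 31.9% of all probe sets, of which 16.2% rose and 15.7% fell. In Reference 14 rose and 2 fell in Eth-Lim against Glu-Lim, or 29.1% beside 24.3%, of which 11.3% rose and 13% fell. The median difference of the 55 genes was 0.13 in each strain, while the medians over all probe sets were 0.03 in Mutant and 0.00 in Reference. Under nitrogen limitation, 18 rose and 6 fell in Mutant N-Lim (Eth) against Mutant N-Lim (Glu), or 43.6% beside 42.5% (19.5% higher and 23% lower). In Reference 17 rose and 6 fell, or 41.8% beside 33.6% (17.7% higher and 15.9% lower). Of the 55 genes, 6 rose in all 4 carbon source comparisons, as did 1.77% of all probe sets, namely ARG7, ILV2, ILV5, LEU4, LYS20 and SER1. Only SER1 held in all 4 without any 1 array. In Mutant Eth-Lim over Glu-Lim left-out arrays gave adjusted p up to 0.0749 for ARG7, 0.0739 for ILV2, 0.0539 for ILV5, 0.0767 for LEU4 and 0.243 for LYS20, in Reference Eth-Lim over Glu-Lim up to 0.109 for ILV2, and in Reference N-Lim (Eth) over N-Lim (Glu) up to 0.052 for ILV5. With the block within each strain ARO1 and TRP2 joined them, and the Reference count under carbon limitation was 26, 24 higher and 2 lower, beside 38.4% of all probe sets. The Mutant count under carbon limitation is the least stable of the 4. It was 10 and 11 without Mutant Glu-Lim replicate 1 or 2, 12 and 14 without Mutant Eth-Lim replicate 1 or 2, and 12 with median centring. In Reference under nitrogen limitation, the count of 23 was 13 without Reference N-Lim (Glu) replicate 1 and 15 without Reference N-Lim (Eth) replicate 2.

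The mutant strain differed from the reference strain at fewer of these genes. In N-Lim (Eth) 5 passed, 3 higher and 2 lower in Mutant, or 9.09% beside 15.8% of all probe sets, of which 5.65% were higher and 10.1% lower. In Eth-Lim 10 passed, 3 higher and 7 lower, or 18.2% beside 24.8% (12.2% higher and 12.6% lower). In N-Lim (Glu) 7 passed, 4 higher and 3 lower, or 12.7% beside 21.1% (9.99% higher and 11.1% lower). In Glu-Lim 3 passed, all lower, or 5.45% beside 18.2% (9.41% higher and 8.8% lower). In each condition the share lay below the background, and 40 of the 55 genes passed in none of the 4, as did 52% of all probe sets. With the block within each strain the counts were 14 (8 higher and 6 lower, beside 32% of all probe sets) in N-Lim (Eth), 19 (8 and 11, beside 41.8%) in Eth-Lim, 16 (9 and 7, beside 36.1%) in N-Lim (Glu) and 8 (1 and 7, beside 34.1%) in Glu-Lim, and 22 genes passed in none. Left-out arrays changed most of these counts. The N-Lim (Eth) count was 0 without Mutant replicate 2 or Reference replicate 1 and 1 without Mutant replicate 1, and the Eth-Lim count was 1 to 6 without any 1 of its 4 arrays. For N-Lim (Glu) it was 3 without either Mutant array and 4 without Reference replicate 1, and for Glu-Lim it was 0 or 1 without any 1 of the 4. Calls that no left-out array removed were those of LEU9 and ARG1 in N-Lim (Glu) and of ARG7 in Eth-Lim. Scaling moved the split in both ethanol conditions, to 5 higher and 1 lower with quantile normalization and 6 higher and 1 lower with median centring in N-Lim (Eth), and to 1 higher and 7 lower and 2 higher and 9 lower in Eth-Lim.

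**Figure D2:**
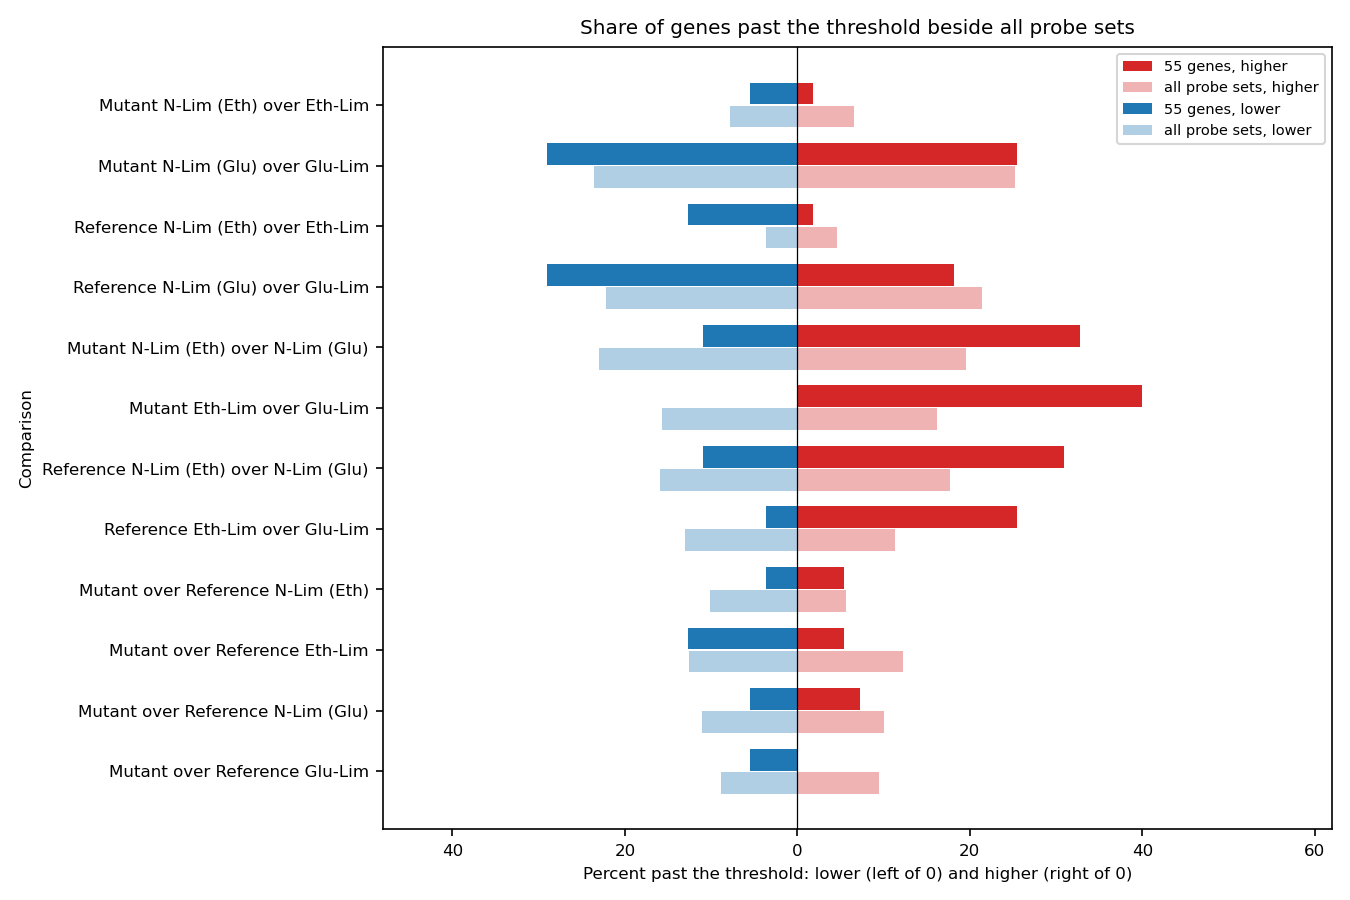
Bars give the percent of genes past the threshold in each of the 12 comparisons, to the right of 0 where they were higher and to the left where they were lower in the group named first. Full colours stand for the 55 genes and pale colours for all 5716 probe sets. For Mutant Eth-Lim over Glu-Lim, 40% of the genes lie to the right and none to the left.

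The single genes are described next by pathway, starting with the common activator. GCN4 measured 14.37 and 14.37 in Mutant N-Lim (Eth), 14.36 and 14.41 in Mutant Eth-Lim, 14.43 and 14.41 in Mutant N-Lim (Glu), and 14.41 and 14.43 in Mutant Glu-Lim. In Reference it measured 14.39 and 14.39, 14.31 and 14.38, 14.41 and 14.36, and 14.34 and 14.35 in the same order of conditions. The 8 groups thus lay within 0.07 log2 of each other, and the lowest adjusted p over the 16 contrasts was 0.211. GCN4 is among the brightest probe sets, at percentile 99.1 of mean level, where the highest value of any probe set was 15.13, and whether its range is compressed there was not tested. The arrays report its mRNA and not its translation.

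Of the pathway regulators, ARG81 had the largest difference past the threshold. This gene encodes the arginine sensor of the complex that represses arginine synthesis. ARG81 measured 10.94 and 10.88 in Mutant N-Lim (Glu), against 10.18 and 10.11 in Mutant Glu-Lim, which gave a rise of 0.76 (SE 0.09, limma adjusted p = 4.32e-05). In Reference it measured 10.51 and 10.70 in N-Lim (Glu), against 10.11 and 10.03 in Glu-Lim, a rise of 0.54 (SE 0.09, limma adjusted p = 0.000583). Neither pair of groups overlapped, and both calls stayed without any 1 array. On ethanol the values were 10.33 and 10.43 in Mutant N-Lim (Eth) against 10.15 and 10.03 in Mutant Eth-Lim, and the difference of 0.29 did not pass, though it did with the block within each strain. ARG81 also fell in N-Lim (Eth) against N-Lim (Glu), by 0.53 in Mutant and by 0.27 in Reference, where leaving out 1 array gave adjusted p up to 0.216. LYS14 rose by 0.29 in Reference N-Lim (Glu) over Glu-Lim and by 0.36 in Mutant Eth-Lim over Glu-Lim, but left-out arrays raised the adjusted p to 0.209 and to 0.124. LEU3 and ARG82, an inositol polyphosphate kinase needed for arginine control, passed in none of the 12 comparisons, but with the block within each strain LEU3 passed in 4, N-Lim (Glu) over Glu-Lim and Eth-Lim over Glu-Lim in both strains, and ARG82 in 1. ARG80 and LEU5, a mitochondrial carrier involved in coenzyme A import, were noisy. The arrays of a group differed by up to 0.45 for ARG80 and 0.58 for LEU5. The span of ARG80 over the group means, 0.93, was wider than the 0.84 of ARG81. Their single calls were a rise of ARG80 by 0.61 in Reference N-Lim (Eth) over N-Lim (Glu) and a rise of LEU5 by 0.52 in the same comparison in Mutant, and left-out arrays gave adjusted p up to 0.254 and 0.158. Each passed in 5 comparisons with the block within each strain.

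ARG1, which encodes argininosuccinate synthase, had the widest span of the enzymes of arginine synthesis. It measured 14.02 and 14.02 in Mutant N-Lim (Eth), 13.91 and 13.88 in Mutant Eth-Lim, 13.91 and 13.92 in Mutant N-Lim (Glu), and 13.14 and 13.16 in Mutant Glu-Lim. Reference arrays of ARG1 measured 14.13 and 14.16 in N-Lim (Eth), 14.07 and 14.05 in Eth-Lim, 14.18 and 14.22 in N-Lim (Glu), and 13.27 and 13.26 in Glu-Lim. Glucose limitation stood apart as the low condition in both strains, with every other array of ARG1 at least 13.88. ARG1 rose in N-Lim (Glu) over Glu-Lim by 0.76 in Mutant (SE 0.03, limma adjusted p = 2.33e-08) and by 0.93, or 1.90-fold, in Reference (SE 0.03, limma adjusted p = 7.31e-09). It rose in Eth-Lim over Glu-Lim by 0.74 in Mutant and by 0.79 in Reference. These 4 calls held without any 1 array. ARG1 was also the 1 gene of the 55 that was lower in Mutant than in Reference in all 4 conditions, as were 0.227% of all probe sets, by 0.12 in N-Lim (Eth), 0.17 in Eth-Lim, 0.28 in N-Lim (Glu) and 0.11 in Glu-Lim. The 2 strains did not overlap in any condition. The call in N-Lim (Glu) held without any 1 array, and for the other 3 leaving out 1 array gave adjusted p up to 0.147, 0.0516 and 0.169.

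ARG4, which encodes argininosuccinate lyase, the step after ARG1, moved the same way against Glu-Lim with smaller differences. In 3 of the 4 conditions ARG4 was also lower in Mutant than in Reference, by 0.18 in N-Lim (Glu) and by 0.15 in Glu-Lim. The third was Eth-Lim, with means of 13.91 and 14.05. None of these strain calls held in every fit without 1 array. It rose in N-Lim (Glu) over Glu-Lim by 0.11 in Mutant and by 0.14 in Reference, and in Eth-Lim over Glu-Lim by 0.25 and by 0.23. The Eth-Lim calls held without any 1 array, and for the N-Lim (Glu) calls left-out arrays gave adjusted p up to 0.193 in Mutant and 0.085 in Reference. ARG8, the acetylornithine aminotransferase, rose in N-Lim (Glu) over Glu-Lim by 0.28 in Mutant, a call lost whichever array was left out, and by 0.31 in Reference, with adjusted p up to 0.162. In contrast, ARG2 and ARG7 fell in that comparison. ARG2 encodes acetylglutamate synthase and ARG7 the mitochondrial ornithine acetyltransferase, and both act, like ARG8, in the acetylated route to ornithine. ARG2 fell by 0.23 in Mutant and by 0.28 in Reference, and ARG7 by 0.22 and by 0.31. For ARG2 left-out arrays gave adjusted p up to 0.149 and 0.0698, and both ARG7 calls held. ARG7 measured 12.86 and 12.92 in Mutant N-Lim (Eth), 12.87 and 12.82 in Mutant Eth-Lim, 12.40 and 12.46 in Mutant N-Lim (Glu), and 12.65 and 12.65 in Mutant Glu-Lim. Reference arrays of ARG7 measured 12.81 and 12.82 in N-Lim (Eth), 13.08 and 13.15 in Eth-Lim, 12.39 and 12.52 in N-Lim (Glu), and 12.75 and 12.78 in Glu-Lim. Its highest arrays were thus those of Reference Eth-Lim, where Mutant was lower by 0.27 (SE 0.05, limma adjusted p = 0.00433). ARG3, the ornithine carbamoyltransferase, rose by 0.49 in Mutant Eth-Lim over Glu-Lim and by 0.37 in Mutant N-Lim (Eth) over N-Lim (Glu), and was lower by 0.38 in Mutant than in Reference in N-Lim (Glu). Its arrays differed by up to 0.31 within a group, and left-out arrays gave adjusted p up to 0.0583, 0.209 and 0.175 for these calls.

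**Figure D3:**
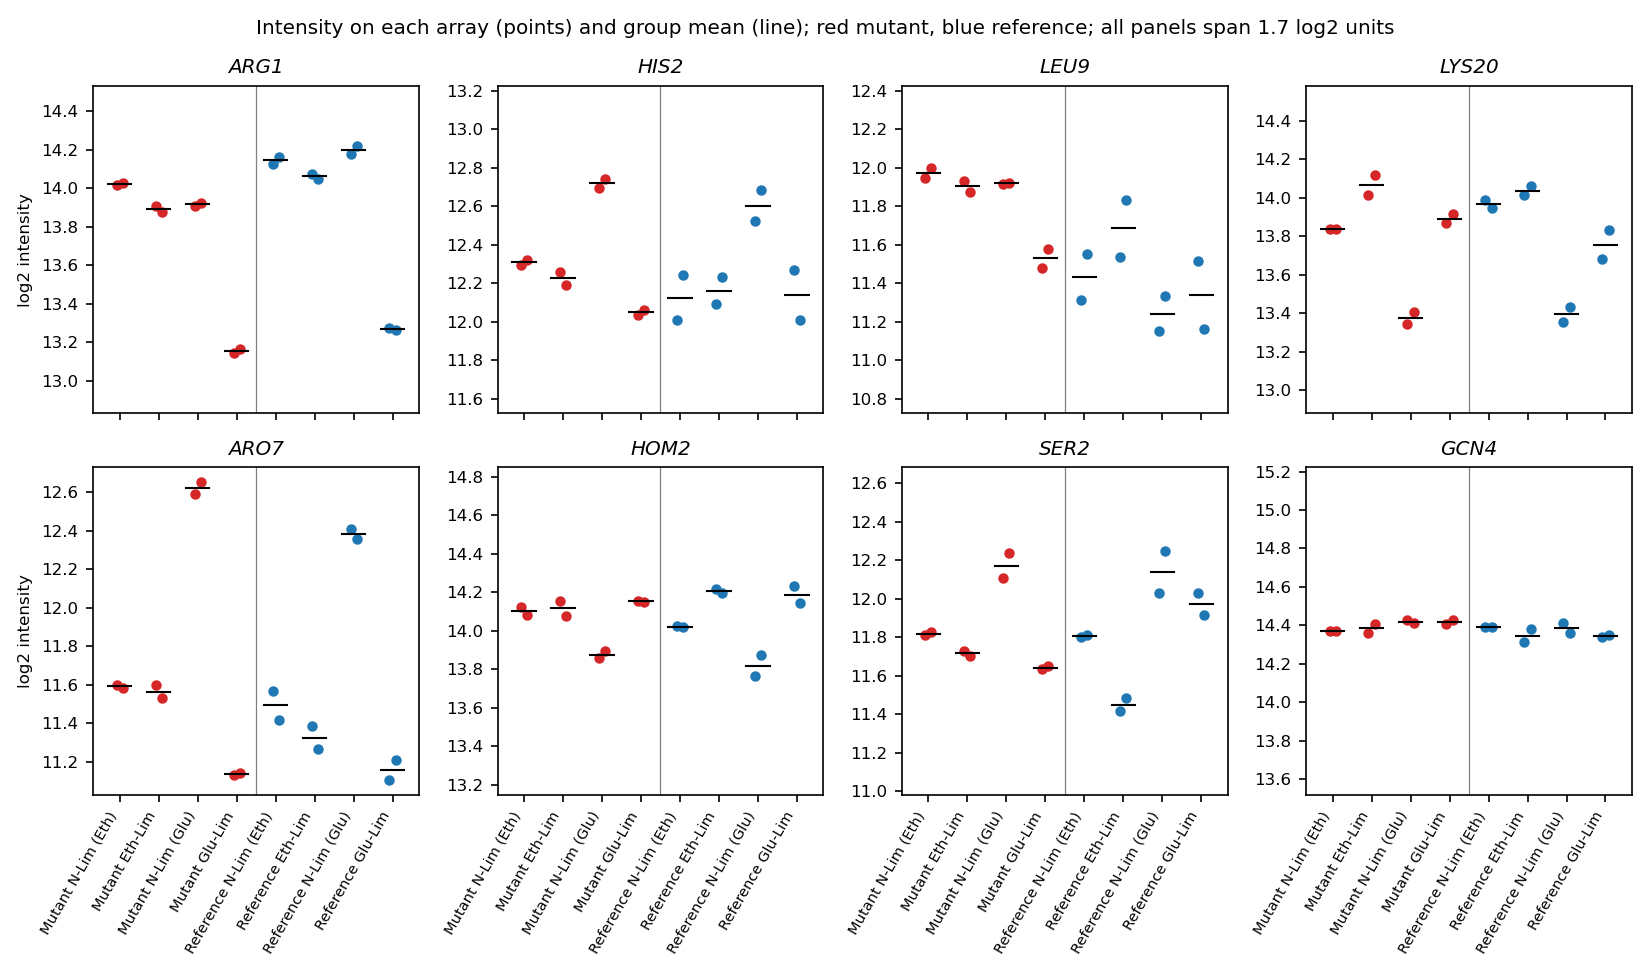
Points give the log2 intensity of 8 genes on each of the 16 arrays, with a line at each group mean, Mutant groups in red on the left and Reference groups in blue on the right. Every panel spans 1.7 log2 units, so that the flat row of GCN4 can be set beside the high N-Lim (Glu) points of ARO7 and the low Glu-Lim points of ARG1.

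In the histidine pathway the calls in N-Lim (Glu) over Glu-Lim were all rises, 6 of the 7 genes in Mutant, or 85.7%, and 4 in Reference, or 57.1%. Of all probe sets 48.8% were called in Mutant and 43.6% in Reference, 25.2% and 21.4% as rises. The group median was 0.24 in Mutant and 0.23 in Reference, against 0.00 over all probe sets in both. HIS2, which encodes histidinol phosphatase, had the largest change. It measured 12.30 and 12.32 in Mutant N-Lim (Eth), 12.26 and 12.19 in Mutant Eth-Lim, 12.70 and 12.74 in Mutant N-Lim (Glu), and 12.04 and 12.06 in Mutant Glu-Lim. Reference arrays of HIS2 measured 12.01 and 12.24 in N-Lim (Eth), 12.09 and 12.23 in Eth-Lim, 12.52 and 12.68 in N-Lim (Glu), and 12.27 and 12.01 in Glu-Lim. N-Lim (Glu) was the high group in both strains and did not overlap with any other group of its strain. The rise over Glu-Lim was 0.67 in Mutant (SE 0.10, limma adjusted p = 0.000265) and 0.46 in Reference (SE 0.10, limma adjusted p = 0.00329). HIS1, the ATP phosphoribosyltransferase of the first step, rose by 0.40 in Mutant and by 0.28 in Reference, and HIS4, a multifunctional enzyme of the pathway, rose by 0.17 and by 0.23. The calls of HIS3 in Mutant and of HIS5 in Reference did not hold in every fit without 1 array. Their differences in those fits ran from 0.13 to 0.23 for HIS3 and from 0.11 to 0.19 for HIS5. HIS6 rose by 0.47 in Mutant, with adjusted p up to 0.0937 when 1 array was left out, and its 0.30 in Reference did not pass, though it did with the block within each strain.

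HIS1 and HIS2 were lower on ethanol than on glucose in nitrogen-limited cells. HIS1 fell in N-Lim (Eth) over N-Lim (Glu) by 0.17 in Mutant and by 0.18 in Reference, and HIS2 by 0.41 and by 0.48. Of these 4 calls that of HIS1 in Reference did not hold without any 1 array, with adjusted p up to 0.0528. HIS3, which encodes imidazoleglycerol-phosphate dehydratase and is a common selectable marker, measured 13.69 and 13.64 in Mutant N-Lim (Eth), 13.63 and 13.64 in Mutant Eth-Lim, 13.49 and 13.59 in Mutant N-Lim (Glu), and 13.32 and 13.40 in Mutant Glu-Lim. In Reference HIS3 measured 13.60 and 13.58 in N-Lim (Eth), 13.77 and 13.75 in Eth-Lim, 13.44 and 13.52 in N-Lim (Glu), and 13.45 and 13.48 in Glu-Lim. It was therefore present at a similar level on all arrays, and it rose in Eth-Lim over Glu-Lim by 0.28 in Mutant and by 0.29 in Reference. HIS5, the histidinol-phosphate aminotransferase, rose in the same comparison by 0.23 and by 0.25. HIS7 passed only in Mutant Eth-Lim over Glu-Lim, with 0.17, a call that was lost whichever array was left out.

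ARO7 changed most among the aromatic genes and among all 55. It encodes chorismate mutase, which commits chorismate to phenylalanine and tyrosine. ARO7 measured 11.60 and 11.58 in Mutant N-Lim (Eth), 11.60 and 11.53 in Mutant Eth-Lim, 12.59 and 12.65 in Mutant N-Lim (Glu), and 11.13 and 11.14 in Mutant Glu-Lim. Reference arrays of ARO7 measured 11.57 and 11.42 in N-Lim (Eth), 11.39 and 11.27 in Eth-Lim, 12.41 and 12.36 in N-Lim (Glu), and 11.11 and 11.21 in Glu-Lim. The N-Lim (Glu) arrays lay far above all others in each strain. The rise over Glu-Lim was 1.48, or 2.80-fold, in Mutant (SE 0.06, limma adjusted p = 1.47e-08) and 1.23, or 2.34-fold, in Reference (SE 0.06, limma adjusted p = 9.73e-08). In N-Lim (Eth) over N-Lim (Glu) it fell by 1.03 in Mutant and by 0.89 in Reference. All 4 of these calls held without any 1 array. Between the limitations on ethanol the differences were 0.03 in Mutant and 0.17 in Reference, and neither passed, though that of Reference did with the block within each strain. ARO7 was higher by 0.24 in Mutant than in Reference in both N-Lim (Glu) and Eth-Lim, but left-out arrays gave adjusted p up to 0.134 and 0.113.

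The pair of enzymes at the entry of the aromatic pathway, ARO3 and ARO4, are both DAHP synthases. Their group means ranked the conditions alike in Reference but not in Mutant, and the difference between these genes was not tested. ARO4 measured 13.67 and 13.64 in Mutant N-Lim (Eth), 13.77 and 13.69 in Mutant Eth-Lim, 13.34 and 13.37 in Mutant N-Lim (Glu), and 13.75 and 13.74 in Mutant Glu-Lim. In Reference ARO4 measured 13.62 and 13.68 in N-Lim (Eth), 13.83 and 13.83 in Eth-Lim, 13.33 and 13.50 in N-Lim (Glu), and 13.78 and 13.72 in Glu-Lim. Its N-Lim (Glu) arrays were the low ones in both strains, with a fall against Glu-Lim of 0.38 in Mutant (SE 0.05, limma adjusted p = 0.000203) and of 0.33 in Reference (SE 0.05, limma adjusted p = 0.000617). ARO3 measured 13.32 and 13.32 in Mutant N-Lim (Eth), 13.36 and 13.26 in Mutant Eth-Lim, 13.30 and 13.35 in Mutant N-Lim (Glu), and 13.25 and 13.19 in Mutant Glu-Lim. In Reference ARO3 measured 13.37 and 13.29 in N-Lim (Eth), 13.60 and 13.55 in Eth-Lim, 13.12 and 13.25 in N-Lim (Glu), and 13.35 and 13.38 in Glu-Lim. Mutant arrays of ARO3 stayed within a narrow band, and its difference between N-Lim (Glu) and Glu-Lim was 0.10 in Mutant (limma adjusted p = 0.162) and -0.17 in Reference (limma adjusted p = 0.0269). The strains differed in this effect by 0.27 (SE 0.08, limma adjusted p = 0.0329), with adjusted p up to 0.110 without 1 array. In Reference, ARO3 also fell by 0.24 in N-Lim (Eth) over Eth-Lim, where the call was lost whichever array was left out.

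Further down the aromatic pathway the changes were smaller. TRP2, a subunit of the anthranilate synthase that opens the tryptophan branch, fell in N-Lim (Glu) over Glu-Lim by 0.27 in Mutant and by 0.29 in Reference, and rose in N-Lim (Eth) over N-Lim (Glu) by 0.40 and by 0.16. Left-out arrays gave adjusted p up to 0.279 for that last rise and removed none of the other 3 calls. TRP3, the other subunit, rose by 0.15 in Mutant N-Lim (Glu) over Glu-Lim, with adjusted p up to 0.189 without 1 array, and its 0.06 in Reference did not pass. ARO1, the pentafunctional enzyme of the middle steps, rose in that carbon source comparison by 0.27 in Mutant and by 0.23 in Reference, where left-out arrays gave adjusted p up to 0.0813. ARO2, the chorismate synthase, fell by 0.15 in Reference N-Lim (Glu) over Glu-Lim and by 0.17 in Reference N-Lim (Eth) over Eth-Lim, with adjusted p up to 0.139 and 0.222 without 1 array. The differences of TRP3, TRP4 and TRP5 stayed between -0.23 and 0.21 in all 12 comparisons, of which TRP3 and TRP5 passed in 2 each and TRP4 in 1, or in 4, 3 and 3 with the block within each strain.

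Lysine synthesis starts with homocitrate synthase, for which yeast has 2 genes. LYS20 measured 13.84 and 13.84 in Mutant N-Lim (Eth), 14.01 and 14.12 in Mutant Eth-Lim, 13.34 and 13.40 in Mutant N-Lim (Glu), and 13.87 and 13.91 in Mutant Glu-Lim. In Reference LYS20 measured 13.99 and 13.94 in N-Lim (Eth), 14.01 and 14.06 in Eth-Lim, 13.36 and 13.43 in N-Lim (Glu), and 13.68 and 13.83 in Glu-Lim. Its N-Lim (Glu) arrays were the lowest in both strains. The fall against Glu-Lim was 0.52 in Mutant (SE 0.06, limma adjusted p = 3.72e-05) and 0.36 in Reference (SE 0.06, limma adjusted p = 0.000545), and the rise in N-Lim (Eth) over N-Lim (Glu) was 0.46 in Mutant and 0.57 in Reference (SE 0.06, limma adjusted p = 3.26e-05). LYS21 measured 13.14 and 13.15 in Mutant N-Lim (Eth), 13.28 and 13.28 in Mutant Eth-Lim, 13.30 and 13.21 in Mutant N-Lim (Glu), and 13.08 and 13.09 in Mutant Glu-Lim. In Reference LYS21 measured 13.55 and 13.33 in N-Lim (Eth), 13.56 and 13.28 in Eth-Lim, 13.50 and 13.31 in N-Lim (Glu), and 13.02 and 13.30 in Glu-Lim. It passed in none of the 12 comparisons, but with the block within each strain it passed in 9, among them N-Lim (Glu) over Glu-Lim in both strains. Its differences for N-Lim (Glu) over Glu-Lim were 0.17 in Mutant (limma adjusted p = 0.256) and 0.24 in Reference (limma adjusted p = 0.123), opposite in sign to the falls of LYS20, and the difference between the 2 genes was not tested.

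Of the later lysine genes, LYS12 and LYS9 passed in 4 of the 12 comparisons each, LYS1 in 3, LYS5 in 2, LYS4 in 1 and LYS2 in none. Under the block within each strain LYS9 and LYS4 passed in 6, LYS1 in 5, LYS12 in 4, LYS5 in 3 and LYS2 in none. LYS12, the homoisocitrate dehydrogenase, fell in N-Lim (Glu) over Glu-Lim by 0.15 in Mutant, a call lost whichever array was left out, and by 0.34 in Reference, and LYS1, one of the saccharopine dehydrogenases, fell by 0.32 in Reference while its 0.06 in Mutant did not pass. For LYS1 the strains differed in this effect by 0.38 (SE 0.09, limma adjusted p = 0.0116), the 1 such difference that held without any 1 array. LYS9, the other saccharopine dehydrogenase, rose by 0.21 in Mutant Eth-Lim over Glu-Lim and by 0.23 in Reference N-Lim (Eth) over N-Lim (Glu), and both calls held without any 1 array. It fell by 0.23 in Mutant N-Lim (Eth) over Eth-Lim and was 0.21 lower in Mutant than in Reference in N-Lim (Eth). LYS4, the homoaconitase, rose by 0.32 in Mutant Eth-Lim over Glu-Lim. LYS5, which activates the reductase Lys2, was 0.27 lower in Mutant than in Reference in Eth-Lim. Left-out arrays gave adjusted p up to 0.064, 0.110, 0.0951 and 0.0958 for these last 4 calls. LYS2, the aminoadipate reductase, spanned 0.19 over the groups.

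Among the branched chain genes, LEU4 and LEU9 are the 2 genes for isopropylmalate synthase, the first enzyme of the leucine branch. Their group means ranked the 4 conditions alike in Reference but not in Mutant, and the difference between the 2 genes was not tested. LEU4 measured 14.38 and 14.33 in Mutant N-Lim (Eth), 14.41 and 14.37 in Mutant Eth-Lim, 14.00 and 14.05 in Mutant N-Lim (Glu), and 14.25 and 14.22 in Mutant Glu-Lim. In Reference LEU4 measured 14.29 and 14.33 in N-Lim (Eth), 14.44 and 14.48 in Eth-Lim, 13.97 and 14.02 in N-Lim (Glu), and 14.28 and 14.26 in Glu-Lim. The order of the conditions was the same in both strains, and LEU4 fell in N-Lim (Glu) over Glu-Lim by 0.22 in Mutant and by 0.27 in Reference. LEU9 measured 11.95 and 12.0004 in Mutant N-Lim (Eth), 11.93 and 11.88 in Mutant Eth-Lim, 11.92 and 11.92 in Mutant N-Lim (Glu), and 11.48 and 11.58 in Mutant Glu-Lim. In Reference LEU9 measured 11.31 and 11.55 in N-Lim (Eth), 11.54 and 11.83 in Eth-Lim, 11.15 and 11.33 in N-Lim (Glu), and 11.52 and 11.16 in Glu-Lim. The strains did not overlap except in Glu-Lim. LEU9 was higher in Mutant than in Reference by 0.68, or 1.60-fold, in N-Lim (Glu) (SE 0.13, limma adjusted p = 0.00471) and by 0.54 in N-Lim (Eth) (SE 0.13, limma adjusted p = 0.0194). The first call held without any 1 array, and for the second left-out arrays gave adjusted p up to 0.151. In Eth-Lim and Glu-Lim the strain differences of 0.22 (limma adjusted p = 0.241) and 0.19 (limma adjusted p = 0.337) did not pass, and the change of the strain difference with the limitation on glucose was 0.49 (SE 0.18, limma adjusted p = 0.0917). With the block within each strain all of these passed, so that LEU9 was higher in Mutant in all 4 conditions. For LEU4 the strain differences lay between -0.07 and 0.05.

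ILV2 and ILV6, the catalytic and the regulatory subunit of acetolactate synthase, changed in the same direction. Against Glu-Lim, ILV2 fell in N-Lim (Glu) by 0.21 in Mutant and by 0.21 in Reference, and ILV6 by 0.13 and by 0.14. In N-Lim (Eth) over N-Lim (Glu), ILV2 rose by 0.34 in Mutant and by 0.26 in Reference, and ILV6 by 0.21 and by 0.14. The ILV2 calls held without any 1 array, and of those of ILV6 only the 0.21 did. ILV5, the reductoisomerase that follows, rose in all 4 carbon source comparisons, by 0.15 to 0.22. ILV3, the dihydroxyacid dehydratase, rose in Eth-Lim over Glu-Lim by 0.16 in Mutant, with adjusted p up to 0.0917 without 1 array, and by 0.24 in Reference. LEU1, the isopropylmalate isomerase, was higher in Mutant than in Reference by 0.20 in N-Lim (Eth), 0.13 in Eth-Lim and 0.13 in N-Lim (Glu), with adjusted p up to 0.0646, 0.263 and 0.192 without 1 array. ILV1, the threonine deaminase, passed in no comparison.

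LEU2, which encodes isopropylmalate dehydrogenase and is a common selectable marker, was flat. It measured 14.41 and 14.36 in Mutant N-Lim (Eth), 14.38 and 14.34 in Mutant Eth-Lim, 14.36 and 14.33 in Mutant N-Lim (Glu), and 14.34 and 14.34 in Mutant Glu-Lim. In Reference it measured 14.33 and 14.31 in N-Lim (Eth), 14.39 and 14.32 in Eth-Lim, 14.34 and 14.36 in N-Lim (Glu), and 14.38 and 14.40 in Glu-Lim. The lowest adjusted p of LEU2 over the 16 contrasts was 0.283. Like GCN4 it lies near the top of the brightness scale, at percentile 98.9.

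Of the genes from aspartate to threonine, HOM2 and HOM3 changed and HOM6 did not pass in any comparison. HOM2 encodes aspartate semialdehyde dehydrogenase and HOM3 aspartate kinase, the first step. HOM2 measured 14.12 and 14.08 in Mutant N-Lim (Eth), 14.16 and 14.08 in Mutant Eth-Lim, 13.86 and 13.89 in Mutant N-Lim (Glu), and 14.16 and 14.15 in Mutant Glu-Lim. In Reference HOM2 measured 14.02 and 14.02 in N-Lim (Eth), 14.22 and 14.20 in Eth-Lim, 13.76 and 13.88 in N-Lim (Glu), and 14.23 and 14.14 in Glu-Lim. N-Lim (Glu) was again the low group in both strains, and HOM2 fell there against Glu-Lim by 0.28 in Mutant and by 0.37, or 1.29-fold, in Reference (SE 0.05, limma adjusted p = 0.000149). HOM3 fell by 0.25 in Mutant and by 0.20 in Reference, and it rose by 0.28 in each strain in N-Lim (Eth) over N-Lim (Glu). THR1, the homoserine kinase, fell by 0.24 and THR4, the threonine synthase, by 0.19 in Reference N-Lim (Glu) over Glu-Lim, with adjusted p up to 0.0741 and 0.0863 without 1 array, and neither passed in Mutant.

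SER2, which encodes phosphoserine phosphatase, the last step of serine synthesis, had strain differences of opposite sign. It measured 11.81 and 11.83 in Mutant N-Lim (Eth), 11.73 and 11.70 in Mutant Eth-Lim, 12.11 and 12.24 in Mutant N-Lim (Glu), and 11.63 and 11.65 in Mutant Glu-Lim. Reference arrays of SER2 measured 11.80 and 11.81 in N-Lim (Eth), 11.42 and 11.48 in Eth-Lim, 12.03 and 12.25 in N-Lim (Glu), and 12.03 and 11.91 in Glu-Lim. Under nitrogen limitation the strains differed by 0.01 in N-Lim (Eth) and by 0.03 in N-Lim (Glu), and neither passed. They stood apart under carbon limitation, where Mutant was higher than Reference by 0.27 in Eth-Lim (SE 0.07, limma adjusted p = 0.0212) and lower by 0.33 in Glu-Lim (SE 0.07, limma adjusted p = 0.0102). Leaving out 1 array gave adjusted p up to 0.125 and 0.0655. SER2 was the 1 gene of the 55 with strain differences past the threshold in both directions, which LYS1, LYS4, LYS5 and LYS9 were as well with the block within each strain, and the change of the strain difference between Eth-Lim and Glu-Lim was not tested. Between the carbon sources under carbon limitation it fell by 0.52 in Reference (SE 0.07, limma adjusted p = 0.000449), while Mutant differed by 0.07 and did not pass. Between N-Lim (Glu) and Glu-Lim it rose by 0.53 in Mutant (SE 0.07, limma adjusted p = 0.000127), while Reference differed by 0.17 and did not pass, though it did with the block within each strain, and the strains differed in that effect by 0.36 (SE 0.10, limma adjusted p = 0.027), with adjusted p up to 0.102 without 1 array.

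SER1, the phosphoserine aminotransferase, rose on ethanol in all 4 carbon source comparisons, by 0.33 and 0.44 in Mutant and by 0.30 and 0.37 in Reference under carbon and nitrogen limitation. These 4 calls held without any 1 array. SER3 and SER33, a pair of genes for the phosphoglycerate dehydrogenase of the first step, changed little. SER3 measured 12.01 and 12.10 in Mutant N-Lim (Eth), 12.20 and 12.33 in Mutant Eth-Lim, 12.21 and 12.09 in Mutant N-Lim (Glu), and 12.42 and 12.40 in Mutant Glu-Lim. In Reference SER3 measured 12.31 and 12.17 in N-Lim (Eth), 12.37 and 12.22 in Eth-Lim, 12.35 and 12.18 in N-Lim (Glu), and 12.27 and 12.36 in Glu-Lim. Its 1 call was a fall of 0.26 in Mutant N-Lim (Glu) over Glu-Lim (SE 0.08, limma adjusted p = 0.0224), with adjusted p up to 0.144 without 1 array, and it passed in 3 comparisons with the block within each strain. SER33 measured 12.80 and 12.79 in Mutant N-Lim (Eth), 12.80 and 12.70 in Mutant Eth-Lim, 12.90 and 12.88 in Mutant N-Lim (Glu), and 12.89 and 12.86 in Mutant Glu-Lim. In Reference SER33 measured 12.89 and 13.05 in N-Lim (Eth), 12.66 and 12.86 in Eth-Lim, 12.92 and 12.96 in N-Lim (Glu), and 12.89 and 12.77 in Glu-Lim. It passed in no comparison, or in 4 with the block. Duplicate genes of these pairs share sequence, and how far their probe sets cross-hybridise was not tested.

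**Figure D4:**
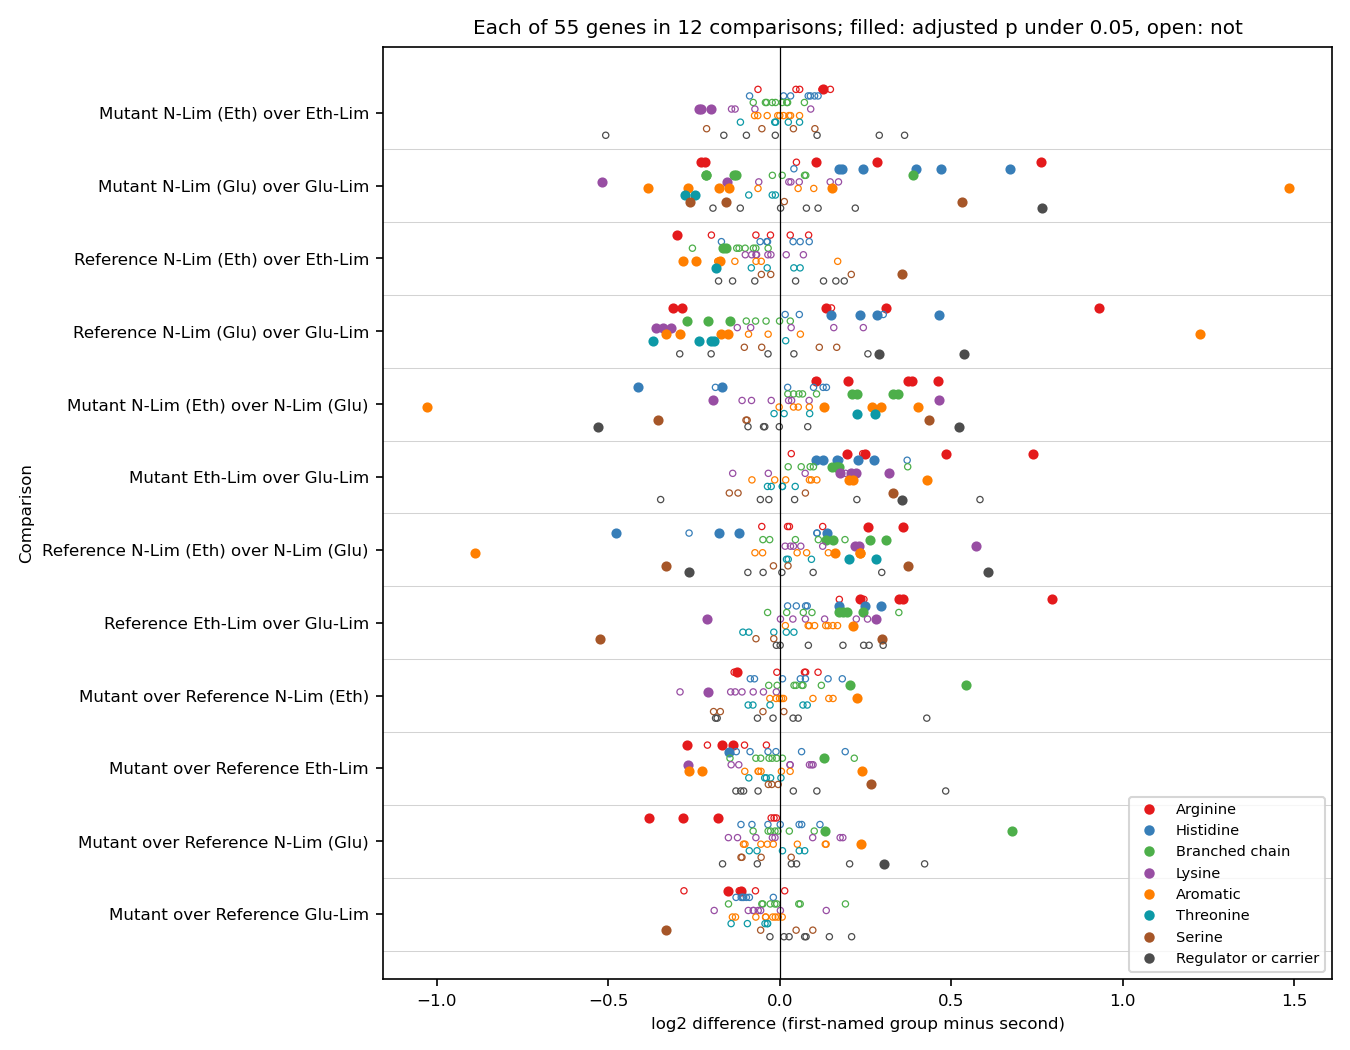
Each point is the log2 difference of 1 gene in 1 of the 12 comparisons, group named first minus group named second, coloured by pathway, filled where the adjusted p was under 0.05 and open where it was not. The largest differences are those of ARO7, at 1.48 in Mutant N-Lim (Glu) over Glu-Lim and -1.03 in Mutant N-Lim (Eth) over N-Lim (Glu).

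The effect of the limitation was then compared directly between the carbon sources, as the difference on ethanol minus the difference on glucose. In Mutant 15 of the 55 genes passed, 9 higher and 6 lower, or 27.3% beside 33.8% of all probe sets, of which 16% were higher and 17.8% lower. In Reference 10 passed, 3 higher and 7 lower, or 18.2% beside 24.5% (14% higher and 10.5% lower). The lower ones were led in both strains by ARO7, with -1.46 in Mutant (SE 0.09, limma adjusted p = 5.66e-07) and -1.06 in Reference (SE 0.09, limma adjusted p = 1.14e-05), and by ARG1, with -0.63 (SE 0.05) and -0.85 (SE 0.05). HIS2 followed with -0.59 in Mutant and -0.50 in Reference, and ARG81 with -0.47 in Mutant. The difference of nitrogen over carbon limitation was thus larger on glucose than on ethanol for these genes. For ARG1 the groups apart were those of Glu-Lim, with means of 13.15 in Mutant and 13.27 in Reference. Its N-Lim (Glu) means, 13.92 and 14.20, lay near those of Eth-Lim, 13.89 and 14.06, and of N-Lim (Eth), 14.02 and 14.14. Among the positive ones were LYS20, with 0.29 in each strain, HOM3 with 0.23 in Mutant and 0.24 in Reference, and in Mutant ARG2 with 0.35, ARO4 with 0.31 and ARG7 with 0.26, while Reference had LYS12 with 0.27. The calls that held without any 1 array were those of ARO4, HOM3, ARG1, ARO7, HIS1, HIS2 and SER2 in Mutant and of HOM3, ARG1, ARO7 and HIS4 in Reference. The Mutant count was 8 without Mutant N-Lim (Glu) replicate 1 and 9 without Mutant Eth-Lim replicate 2 or Mutant N-Lim (Eth) replicate 1, and quantile normalization gave 5 higher and 9 lower. The Reference count was 6 without Reference Glu-Lim replicate 2 or Reference N-Lim (Eth) replicate 1. In the fit with the block within each strain 27 passed in Mutant, 13 higher and 14 lower, beside 47.1% of all probe sets, and 22 in Reference, 7 higher and 15 lower, beside 37.5%.

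Between the strains the effect of the limitation differed at few of the genes. On ethanol 2 passed, or 3.64% beside 6.23% of all probe sets, of which 2.34% were higher and 3.88% lower. ARG7 was higher, with 0.35, and LYS9 was lower, with -0.30, when the effect in Reference was subtracted from that in Mutant. On glucose 5 passed, or 9.09% beside 20.7% (10.2% higher and 10.5% lower), namely LYS1 with 0.38, SER2 with 0.36, ARO3 with 0.27, ARO2 with 0.20 and ARG1 with -0.17. Of these 7 calls only that of LYS1 held without any 1 array. The ethanol count was 0 without Reference Eth-Lim replicate 2, Reference N-Lim (Eth) replicate 1, Mutant Eth-Lim replicate 2 or Mutant N-Lim (Eth) replicate 2, and 1 without Reference Eth-Lim replicate 1, Mutant Eth-Lim replicate 1 or Mutant N-Lim (Eth) replicate 1. With median centring the ethanol split was 4 higher and 0 lower, and with quantile normalization 2 higher and 1 lower. The glucose count was 1 without Reference Glu-Lim replicate 1, either Mutant Glu-Lim array or Mutant N-Lim (Glu) replicate 2, 2 without Reference N-Lim (Glu) replicate 1, and 3 without Reference Glu-Lim replicate 2 or Mutant N-Lim (Glu) replicate 1. With median centring the glucose split was 5 higher and 0 lower. The block within each strain gave 10 calls on ethanol, 7 higher and 3 lower, beside 18.1% of all probe sets, and 10 calls on glucose, 9 higher and 1 lower, beside 34.4%.

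Other genes of amino acid synthesis that the name rule leaves out were set beside the 55, with 20 further synthesis genes and 8 genes of general control or of regulators shared between pathways. Their calls rest on the main fit alone and were not checked with left-out arrays, other scalings or a block. In N-Lim (Glu) over Glu-Lim 13 of the 20 synthesis genes passed in each strain, 6 higher and 7 lower in Mutant and 4 higher and 9 lower in Reference, or 65% beside 48.8% and 43.6% of all probe sets. ARO9, an aromatic aminotransferase that also serves in the breakdown of aromatic amino acids, fell by 2.40 in Mutant and fell by 2.19 in Reference. AGX1, which forms glycine from glyoxylate, fell by 1.47 in Mutant and by 1.05 in Reference, and GLY1, the threonine aldolase, by 0.85 and by 0.72. ALT1, an alanine transaminase, rose by 0.86 in Mutant and by 0.43 in Reference, and ASN1, an asparagine synthetase, by 0.72 and by 0.58. In Eth-Lim over Glu-Lim 8 of the 20 passed in Mutant, 6 of them higher, and 5 in Reference, 3 of them higher, or 40% and 25% beside 31.9% and 24.3% of all probe sets.

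Of the 8 general control and regulator genes, 4 rose in Mutant and 5 in Reference in N-Lim (Glu) over Glu-Lim, and none fell, where 25.2% and 21.4% of all probe sets rose. PCL5, a cyclin that directs the breakdown of Gcn4 protein and is itself a Gcn4 target, rose by 0.62 in Mutant and by 0.45 in Reference. BAS1, an activator of purine and histidine genes, rose by 0.44 in Mutant and by 0.38 in Reference, and MCM1, a partner of Arg80 and Arg81, by 0.40 and by 0.38. GCN20, which acts upstream of the kinase Gcn2, rose by 0.43 in Mutant and by 0.19 in Reference. GCN2 itself, the kinase that senses uncharged tRNA, passed in no comparison, and neither did GCN3. In N-Lim (Eth) over N-Lim (Glu) PCL5 fell by 0.62 in Mutant and by 0.44 in Reference, BAS1 by 0.28 and by 0.25, and MCM1 by 0.30 and by 0.28.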

How the data were processed

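RNA of 16 chemostat samples was measured on Affymetrix yeast arrays, in 8 groups of 2 arrays. The deposited values are linear intensities, 1 for each probe set, which the authors background-corrected and normalized across arrays. GCRMA is the tool named for this, its version and the step to the linear scale are not given in the sources used here, and the lowest deposited intensity is 1, which 5 values have. The paper at hand describes a time course, which the labels do not, and nothing on the design was taken from it.

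The deposited intensities were converted to log2 without an offset. Gene names came from the platform annotation, in which 5498 of 5716 probe sets carry 1 symbol and 218 none, and none of the 55 probe sets is named as one shared by several transcripts (0 names with a letter before the final _at). TRP1 and ARG5,6 were not analysed here, and no sequence or genome position was used. The tests used limma 3.58.1 (R 4.3.3), with 1 mean for each of the 8 groups, every array in the same fit, 8 residual degrees of freedom, and eBayes moderation with 2.01 prior degrees of freedom. From it 12 comparisons of 2 groups and 4 interactions were taken, each adjusted with Benjamini-Hochberg over 5716 probe sets at 0.05. The number of arrays limits the precision, and no counting depth applies to arrays. The fit was tested on simulated data with known changes in 1 comparison and independent noise on each array. Replicate differences that correlate between groups, described below, were not simulated, so the test does not speak to them.

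Values on every array were given for GCN4, for HIS3 and LEU2, for 4 pairs of duplicate genes and for the gene with the largest change past the threshold in each pathway, and ARG7 and the regulators were added after their values had been seen. In each comparison up to 6 genes with the largest rise and 6 with the largest fall were eligible to be named, in each interaction 4 and 4, and further genes were named to complete a pathway. The genes and the lists were chosen with earlier results of these data known. Alternatives were quantile normalization, median centring, leaving out the dimmest 25% of probe sets, the mean of all probe sets of a gene, a mean-variance trend, the replicate number as a block, and leaving out each array in turn. The titles and descriptions number the 2 Reference Glu-Lim arrays oppositely. With the numbers of the descriptions, the differences between the 2 arrays of a group correlated over probe sets by 0.35 to 0.68 in Reference, in each of 6 pairs of groups, and by 0.02 to 0.29 in Mutant, over 0.1 in 5 of 6. A block of these numbers within each strain was therefore added after seeing the data.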

Additional observations from a re-analysis of the deposited data

Results flagged for a closer look

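With 2 arrays a group, no search for single deviating arrays was made. What drew attention were effects that differed between conditions or strains in a test of the difference itself. The effect of nitrogen against carbon limitation differed between ethanol and glucose at 15 of the 55 genes in Mutant and at 10 in Reference. That effect differed between Mutant and Reference at 2 genes on ethanol and at 5 on glucose. In the fit without a block all 4 shares lay below those of all probe sets, which are 33.8%, 24.5%, 6.23% and 20.7%.

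For 3 genes the carbon source acted in opposite directions under the 2 limitations, each direction past the threshold, or 3 of 55 beside 14.3% of all probe sets that passed in both directions among the 4 carbon source comparisons. With the block within each strain HIS2, HIS6 and LYS21 also passed in both directions among these comparisons. ARO7 in Mutant was higher by 0.43 in Eth-Lim than in Glu-Lim and lower by 1.03 in N-Lim (Eth) than in N-Lim (Glu), so that the 2 effects differed by -1.46 (limma adjusted p = 5.66e-07). HIS1 in Mutant was higher by 0.13 in the first comparison and lower by 0.17 in the second, with a difference of -0.30 (limma adjusted p = 0.00252), and its rise did not pass in 3 of the 4 fits that left out 1 array (adjusted p up to 0.183). HIS4 in Reference was higher by 0.17 and lower by 0.12, with a difference of -0.29 (limma adjusted p = 0.00186), and its fall did not pass in 3 of the 4 fits that left out 1 array.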

How the results depend on the processing

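The check of signs covered only the 119 differences past the threshold that were eligible by size to be named, and not the other differences given above. None of these 119 changed sign under any alternative. The blocks, the mean-variance trend and the dim filter leave every difference as it is, so for them this was fixed in advance. The same holds for the mean of all probe sets of a gene, because each of the 55 has 1 probe set. That alternative could move only the moderation and the adjustment of the p-values. Of 119 named differences, 11 fell below the threshold with quantile normalization, 8 with median centring, 9 with the replicate block, 1 with a mean-variance trend and none with the mean of all probe sets of a gene, and with 1 array left out 203 values fell below it and 361 did not. The dim filter removed some of the dimmer genes from the test and changed no call among the 110 values that it kept.

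Counts of the 55 genes past the threshold moved by over 1.5 times in 5 cases outside the left-out arrays and the block within each strain. Median centring gave 12 in place of 22 for Mutant Eth-Lim over Glu-Lim and 4 in place of 2 for the limitation effect on ethanol between the strains. The mean-variance trend gave 5 in place of 3 for Mutant over Reference in Glu-Lim and 11 in place of 7 in N-Lim (Glu). The replicate block gave 4 in place of 8 for Reference N-Lim (Eth) over Eth-Lim. The cause of these moves was not tested.

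Over all groups the replicate numbers of the titles did not pair the arrays. Replicate differences of 2 groups correlated between -0.68 and 0.66 over 28 pairs of groups, 11 of them over 0.1 and 11 under -0.1. With the numbers of the descriptions as 1 block over both strains 1 named difference was lost, no count moved by over 1.5 times, and most counts were higher, with 31 in place of 26 for Reference N-Lim (Glu) over Glu-Lim and 21 in place of 16 for Reference Eth-Lim over Glu-Lim. With them as a block within each strain, an alternative chosen after seeing the data, no named difference was lost and 11 counts moved by over 1.5 times. They were 12 for Mutant and 16 for Reference N-Lim (Eth) over Eth-Lim, 26 for Reference Eth-Lim over Glu-Lim, and 14, 19, 16 and 8 for Mutant over Reference in N-Lim (Eth), Eth-Lim, N-Lim (Glu) and Glu-Lim. For the interactions they were 27 in Mutant and 22 in Reference for ethanol minus glucose, and 10 on ethanol and 10 on glucose for Mutant minus Reference. GCN4, HOM6, ILV1, LEU2 and LYS2 passed in none of the 12 comparisons with or without this block. What the numbers stand for was not given in the labels.

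With 1 array left out, its partner was assumed to vary like the other groups. For nitrogen over carbon limitation the counts were then 19 to 21 in Mutant on glucose (30 with all arrays), 21 to 25 in Reference on glucose (26), 0 to 2 in Mutant on ethanol (4) and 1 to 2 in Reference on ethanol (8). For ethanol over glucose they were 10 to 14 in Mutant (22) and 12 to 17 in Reference (16) under carbon limitation, and 19 to 20 in Mutant (24) and 13 to 22 in Reference (23) under nitrogen limitation. For Mutant over Reference they were 0 to 4 in N-Lim (Eth) (5), 1 to 6 in Eth-Lim (10), 3 to 8 in N-Lim (Glu) (7) and 0 to 1 in Glu-Lim (3). For the limitation effect on ethanol minus glucose they were 8 to 13 in Mutant (15) and 6 to 12 in Reference (10), and for Mutant minus Reference 0 to 2 on ethanol (2) and 1 to 4 on glucose (5).

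Background correction could not be redone from the deposited values, and no slide or scan date was at hand. Signal over background was not given, so calls of dim genes rest on the intensities alone.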
